A study of Mus musculus with 6 samples.

Results

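Glycolysis and hypoxia response genes were followed in P19 cells, a mouse embryonal carcinoma line that differentiates under retinoic acid. The set holds 33 gene symbols and was chosen by symbol, with earlier results of these data known. It runs from the glucose transporters through the enzymes of glycolysis to lactate handling, oxygen sensing and the targets of the hypoxia-inducible factor (HIF). These symbols matched 34 of the 54532 Ensembl entries in the deposited table, because Aldoa is listed under a main and a minor entry. RNA was sequenced from 6 samples, 3 transfected with negative control (NC) siRNA and 3 with an siRNA against Baf45d. Every sample then went through 5 days of differentiation with all-trans retinoic acid, so both siRNA groups share that treatment. Baf45d is another name of Dpf2, whose protein belongs to BAF, a complex that remodels chromatin. The siRNAs were delivered by transient transfection before retinoic acid. The labels describe the 3 samples of a group as biological replicates, without saying whether they came from separate cultures.

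Glycolysis converts glucose to pyruvate in the cytosol, and lactate dehydrogenase then interconverts pyruvate and lactate. HIF1A, the oxygen-regulated subunit of HIF, is hydroxylated by prolyl hydroxylases when oxygen is present and then degraded. In low oxygen it accumulates and binds DNA at a short core sequence near many of the genes described here. Proliferating stem cells are known for high glycolysis, and neural differentiation is often accompanied by a move towards oxidative metabolism.

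Library totals ran from 17127876 to 21224822 counts. All 34 entries passed the filter on low counts, among 16078 genes tested with edgeR's quasi-likelihood test. Dpf2 itself, the siRNA target, stood at 156.1, 154.1 and 157.5 CPM (counts scaled to a common library total) in NC libraries, against 148.2, 141.4 and 147.2 CPM in Baf45d libraries. The groups did not overlap, but the log2 fold change amounted only to -0.10 ± 0.07 (SE, adjusted p = 0.996, edgeR). Summed neural progenitor markers lay at 1598 to 1834 CPM in NC libraries, against 1725 to 1867 CPM in Baf45d libraries. Of these markers 7 of 10 had a positive log2 fold change (median 0.12, beside 0.01 for all genes tested). The 8 pluripotency markers summed to 10.8 to 14.21 CPM and 11.46 to 14.7 CPM, with Zfp42 and Dppa5a at 0 counts.

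The core HIF sequence is written ACGTG, or CACGT on the other strand, and its palindrome CACGTG is also an E-box. It was searched on both strands in the 250 bases before each RefSeq transcript start (GRCm38.p6), with overlapping matches counted as 1 site. Of the 33 symbols 31 matched a RefSeq promoter, all but Ndrg1 and Slc2a3. At least 1 site was present for 19 of these 31 genes (61.3%), against 18.5% of 27025 genes in the promoter table and 24.7% of 11260 of the genes tested. Ldha had the largest number among the members, 3 sites, and Hk2, Pgk1, Slc16a3, Hif1a and Ankrd37 had 2 each. Since many members were picked as known HIF targets, this share is a description of the list and not a finding about it. 4 promoters with at least 1 site are shown, of genes described in detail below, with the ACGTG or CACGT letters in capitals. They are Slc16a3 (chr11:120948817-120949066, plus strand), Pgk1 (chrX:106186850-106187099, plus strand), Ldha (chr7:46845554-46845803, plus strand) and Bnip3 (chr7:138909507-138909756, minus strand), each read 5′ to 3′ in the direction of transcription. The Slc16a3 and Ldha windows lie inside longer gene models of the deposited table. Not shown are Tpi1, Gapdh and Eno2, also described below, which had 0 sites. A second Ldha window (chr7:46846832-46847081) had 0 sites as well.
Slc16a3: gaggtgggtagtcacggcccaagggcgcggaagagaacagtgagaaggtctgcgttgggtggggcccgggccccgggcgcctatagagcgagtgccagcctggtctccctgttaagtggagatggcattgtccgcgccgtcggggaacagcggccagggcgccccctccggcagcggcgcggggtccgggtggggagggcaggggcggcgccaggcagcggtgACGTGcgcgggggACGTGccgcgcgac
Pgk1: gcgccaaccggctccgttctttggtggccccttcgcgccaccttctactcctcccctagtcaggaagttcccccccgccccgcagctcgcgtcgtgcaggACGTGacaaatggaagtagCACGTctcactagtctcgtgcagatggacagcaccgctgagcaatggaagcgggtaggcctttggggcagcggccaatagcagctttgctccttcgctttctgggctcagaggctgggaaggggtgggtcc
Ldha: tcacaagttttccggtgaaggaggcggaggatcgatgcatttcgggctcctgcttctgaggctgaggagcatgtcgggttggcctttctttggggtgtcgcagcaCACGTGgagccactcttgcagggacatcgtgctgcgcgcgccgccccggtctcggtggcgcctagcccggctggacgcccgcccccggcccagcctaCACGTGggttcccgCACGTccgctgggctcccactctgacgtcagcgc
Bnip3: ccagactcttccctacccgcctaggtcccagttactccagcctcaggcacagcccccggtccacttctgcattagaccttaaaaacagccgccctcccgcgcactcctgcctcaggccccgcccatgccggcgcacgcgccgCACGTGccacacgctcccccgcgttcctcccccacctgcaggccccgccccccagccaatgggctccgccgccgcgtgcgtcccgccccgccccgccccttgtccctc

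None of the 34 entries passed an adjusted p of 0.05, where 0% of all genes tested did (0 of 16078). At an unadjusted p under 0.05 the count was 0 of 34, beside 2.85% of all genes (459). The members nonetheless lay mostly on one side of zero. The log2 fold change was negative for 27 of 34, against 48.1% of all genes tested, and its median was -0.16, against 0.01 for all genes. The set was chosen with earlier results of these data known, so these values describe it and are not independent support. DESeq2 and limma-voom each gave 2 members an unadjusted p under 0.05, Ndrg1 and Slc16a3, beside 1.32% and 2.99% of all genes in these fits, and no adjusted call. With no filter on low counts 8 members had an unadjusted p under 0.05 in edgeR, all lower, beside 3.85% of all genes in either direction and 2.16% in the lower direction.

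The lower values came from 2 of the 3 Baf45d libraries. Per library, the median over the members of the deviation from the NC mean was 0.04, -0.01 and -0.03 (log2) in NC libraries, against 0.08, -0.20 and -0.26 in Baf45d replicates 1, 2 and 3. Baf45d replicate 1 was thus among the NC libraries or above them, and it was the highest library for 11 of 34 entries, beside 20.5% of all genes. Baf45d replicate 3 was the lowest library for 20 of 34 entries, beside 21.1% of all genes, and replicate 2 for 10, beside 23.2%. Replicates 2 and 3 were the 2 lowest of the 6 libraries for 16 of 34 entries, a pattern that 8.43% of all genes tested showed. They were the 2 highest for 1 entry, Hif1a, beside 8.7% of all genes. The groups failed to overlap for 1 entry, Bnip3, beside 4.3% of all genes with every Baf45d library lower, and for 0 entries in the other direction, beside 3.74%.

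**Figure D1:**
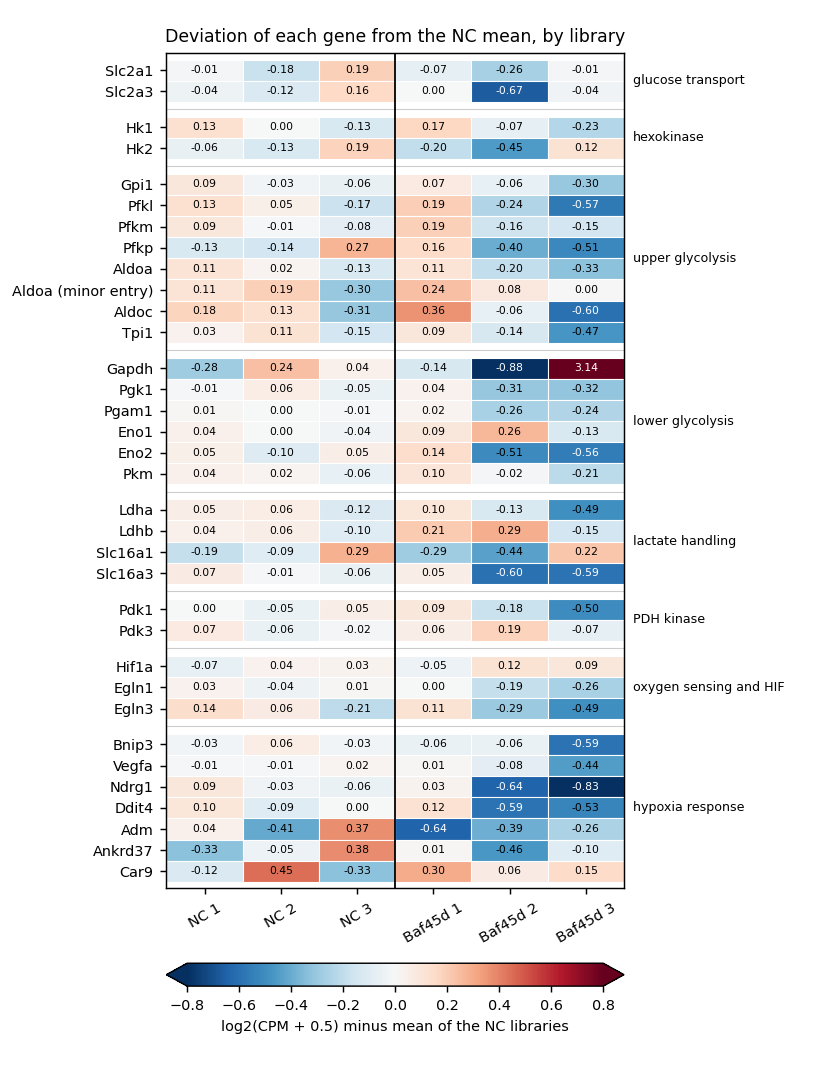
Deviation of each member from the mean of the NC libraries, as log2(CPM + 0.5), for 3 NC and 3 Baf45d libraries; rows are grouped by role and the printed number is the deviation. Baf45d replicates 2 and 3 are mostly blue, with median deviations of -0.20 and -0.26, while Baf45d replicate 1 has a median of 0.08; Gapdh in Baf45d replicate 3 lies far outside the colour scale.

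Libraries with the same number deviated together across genes, and with that number as a block 13 of 34 entries had an unadjusted p under 0.05, all 13 lower with Baf45d siRNA. In the same fit 7.75% of all genes did so in either direction, and 4.48% of all genes in the lower direction. The smallest adjusted p of a member was 0.493 in that fit, so no member passed, beside 0.00622% of all genes (1 of 16078). The 13 were Bnip3, Ddit4, Egln1, Egln3, Hk2, Ldha, Ndrg1, Pfkl, Pgam1, Pgk1, Slc16a3, Slc2a3 and Tpi1. Without Baf45d replicate 1 the members' median was -0.26 and 15 of 34 had an unadjusted p under 0.05, all lower, beside 5.54% of all genes in either direction and 2.82% in the lower direction. Without Baf45d replicate 3 the median was -0.05 and 23 entries were negative. In that fit 3 of 34 had an unadjusted p under 0.05 (edgeR), 2 of them lower. Of all genes 13.3% did so in either direction, and 7.12% in the lower direction. Each of the remaining runs without a single library gave 0 or 1 such entries. With both libraries numbered 3 left out the median was -0.065. Only Ldhb, which was higher, had such a p there, beside 10.6% of all genes. In bulk RNA, fewer cells of one type and less RNA per cell cannot be told apart.

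**Figure D2:**
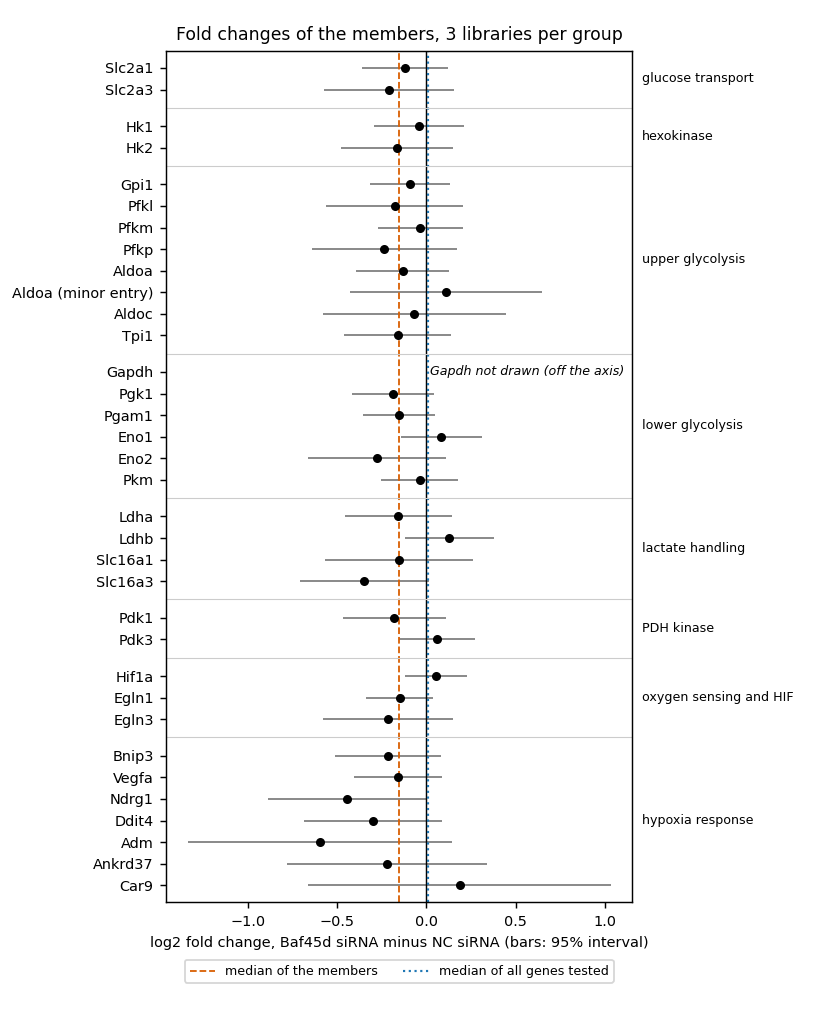
Log2 fold change (Baf45d siRNA minus NC siRNA) of each member except Gapdh, with its 95% interval from edgeR over 3 libraries per group; dashed and dotted lines mark the medians of the members (-0.16) and of all genes tested (0.01). Every interval crosses 0, and most points lie to the left of it.

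Levels can be compared between genes only per length, for which the authors' deposited FPKM was used. Pkm, the pyruvate kinase gene of the last step of glycolysis, had the highest mean over the 6 libraries (466.4 FPKM). Tpi1, for triosephosphate isomerase, came next at 306.4 FPKM, and Pgk1, for phosphoglycerate kinase, at 286.1 FPKM. Pgam1 (283.3 FPKM), Eno1 (255.4 FPKM), Aldoa (221.7 FPKM, main entry) and Ldha (193.4 FPKM) followed. Genes sharing sequence with Eno1 held 38.5% of their joint count with it, and for Gapdh (14.23 FPKM) 94.5%. The places of Eno1 and Gapdh in this order are therefore uncertain. Pgk1, Pgam1 and Pkm also had 54.7%, 37.1% and 34.7% of their 31-base stretches in common with other genes. Genes sharing sequence with these 3 held only 0.37%, 0.989% and 3.67% of the joint counts. How reads that fit several genes were counted is not given, so their places are not certain either. Neighbours in this order such as Pgk1 and Pgam1 did not differ beyond their spread over libraries. At the other end, the hypoxia markers Car9 (0.404 FPKM), Adm (0.938 FPKM) and Ankrd37 (2.63 FPKM) had low levels, as did the minor Aldoa entry (3.43 FPKM).

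**Figure D3:**
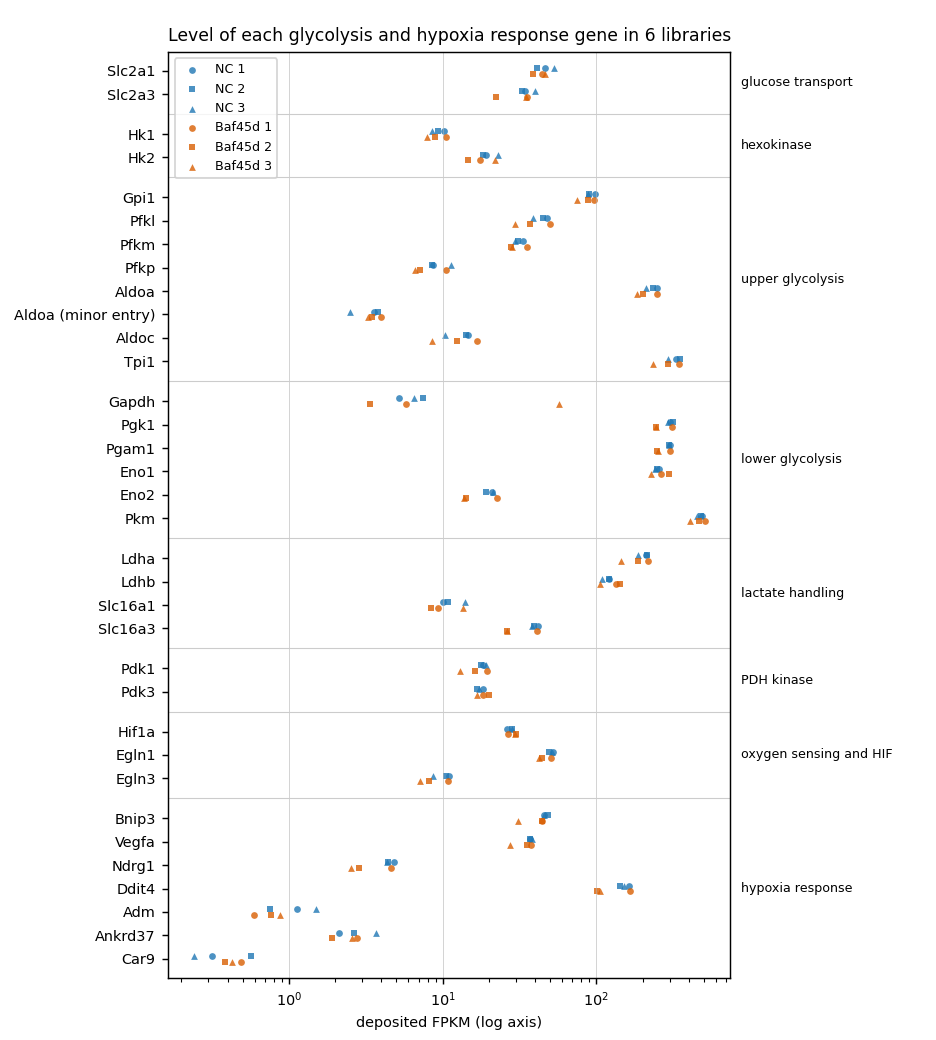
Deposited FPKM (log axis) of each member in every library, by role, with NC libraries in blue and Baf45d libraries in orange. Pkm, Tpi1, Pgk1, Pgam1, Eno1 and Aldoa have the highest levels, with means from 221.7 to 466.4 FPKM, and Car9 and Adm the lowest, with means of 0.404 and 0.938 FPKM.

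Glucose enters through Slc2a1 (GLUT1) and Slc2a3 (GLUT3). Slc2a1 stood at 165.0 ± 21.6 CPM in NC libraries, against 151.7 ± 13.6 CPM in Baf45d libraries (mean ± SD, n = 3 each). For Slc2a3 the NC libraries gave 251.4, 238.8 and 289.1 CPM and the Baf45d libraries 258.9, 162.9 and 252.5 CPM. Its lowest library was Baf45d replicate 2, with the other Baf45d libraries inside the NC range. The hexokinases, which trap glucose in the cell as glucose 6-phosphate, were both expressed. Hk2, the inducible form, stood at 120.8 ± 14.1 and 107.7 ± 21.5 CPM, and Hk1 at 80.35 ± 7.24 and 78.09 ± 11 CPM.

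In the upper part of glycolysis, 7 of 8 entries had a negative log2 fold change and none passed the test. Gpi1, the glucose 6-phosphate isomerase, stood at 594.8 ± 33.2 CPM in NC libraries, against 558.1 ± 71.7 CPM in Baf45d libraries. The phosphofructokinases carry out the committed step. Pfkl had a log2 fold change of -0.18 ± 0.17 (SE), Pfkp of -0.24 ± 0.18 and Pfkm of -0.03 ± 0.11. Pfkp and Pfkm overlap the expressed genes Pitrm1 (133 CPM) and Senp1 (63.2 CPM) on the opposite strand, so their counts are uncertain. Of the aldolases, Aldoa stood at 678.1 ± 56.4 and 618.6 ± 98.2 CPM, and Aldoc, the brain form, at 43.0 ± 7.62 and 41.1 ± 13.4 CPM.

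Tpi1 (chr6:124810586-124814296, GRCm38 as for all coordinates here), which interconverts the triose phosphates, had 913.1, 964.6 and 805.3 CPM in NC libraries, against 949.6, 811.8 and 641.6 CPM in Baf45d libraries. Only Baf45d replicate 3 lay below all NC libraries. Its log2 fold change came to -0.16 ± 0.13 (SE, adjusted p = 0.996, edgeR).

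Pgk1 (chrX:106187100-106203699), whose enzyme makes the first ATP of glycolysis, had 681.6, 716.0 and 663.0 CPM in the NC libraries. The Baf45d libraries had 703.5, 554.9 and 551.3 CPM. Replicates 2 and 3 lay below every NC library and replicate 1 within their range, giving a log2 fold change of -0.19 ± 0.10 (SE, unadjusted p = 0.0991 and adjusted p = 0.996, edgeR). Its promoter, shown above, holds 2 sites. Pgam1, the mutase that follows, was likewise lowest in replicates 2 and 3, with 553.6, 548.5 and 544.8 CPM against 557.2, 458.1 and 465.1 CPM. Eno2, the neuronal enolase, stood at 99.82, 89.99 and 100.2 CPM in NC libraries, against 106.8, 67.71 and 65.26 CPM in Baf45d libraries. It too was highest in Baf45d replicate 1 and lowest in replicates 2 and 3.

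Eno1, the ubiquitous enolase, did not share this order. It had 1377, 1337 and 1307 CPM in NC libraries, against 1427, 1608 and 1227 CPM in Baf45d libraries. Its retrocopy Eno1b and the processed pseudogene Gm4735, named here after their values were seen, share sequence with it. Of their distinct 31-base words, 81.8% and 89.5% occur in Eno1 transcripts. The sum of the 3 entries was 2278, 2246 and 2139 CPM in NC libraries, against 2351, 2394 and 2008 CPM in Baf45d libraries. With both copies counted as Eno1, its log2 fold change was 0.02 in place of 0.08. Pkm had 2443, 2412 and 2269 CPM in NC libraries, against 2546, 2346 and 2046 CPM in Baf45d libraries. Gm49759, on the same strand, overlaps it (69.5 CPM). The groups overlapped, with a log2 fold change of -0.04 ± 0.10 (SE, adjusted p = 0.996, edgeR).

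Gapdh (ENSMUSG00000057666, chr6:125161715-125166467, minus strand), whose enzyme oxidises glyceraldehyde 3-phosphate, stood apart from its neighbours in the pathway. It overlaps Iffo1 on the opposite strand, which was at 37.8 CPM, so its counts are uncertain. Its CPM was 21.5, 31.17 and 27.08 in NC libraries, against 23.88, 14.02 and 236.2 in Baf45d libraries. Baf45d replicate 3 was 7.58-fold above the next library, while replicate 2 was the lowest of the 6. A value in that library more than 2-fold above the other 5 was seen for 6 genes of the 16078 (0.0373%), and among them the excess was largest for Gapdh. In any library, and in either direction, such a gap was found for 2.25% of all genes. The log2 fold change of 1.78 ± 1.196 (SE, adjusted p = 0.996, edgeR) rests on that library, and was -0.49 without it.

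Genes that share at least 50 words of 31 bases with Gapdh transcripts, 193 of them in the deposited table, held 94.5% of their joint count with Gapdh. In FPKM, Pgk1 was 42.3 to 72.9 times Gapdh in 5 libraries and 4.3 times in Baf45d replicate 3. The processed pseudogene Gm13394 (chr2:28933610-28934609), an intronless copy also named after its values were seen, has 96.8% of its 31-base words in Gapdh transcripts. Gm13394 carried 17618, 21374 and 16951 counts in NC libraries, against 17028, 11625 and 17253 in the Baf45d libraries, whereas Gapdh itself carried 384, 664 and 484 counts and 421, 236 and 4339 counts. Gapdh made up 1.99% to 3.01% of the pair's CPM in 5 libraries and 20.1% in Baf45d replicate 3. The pair summed to 1008, 1034 and 975.7 CPM in NC libraries, against 989.9, 704.5 and 1175 CPM in Baf45d libraries, so Baf45d replicate 3 was also the highest library for the sum. Counted together, their log2 fold change was -0.07 (adjusted p = 0.996, edgeR). How the authors' counting treated reads that fit both entries is not given in the sources used here. Of the other rows named for Gapdh, Gapdhs, the sperm form, stood at 2.62 ± 0.601 and 2.16 ± 0.307 CPM, and the pseudogenes Gapdh-ps14 and Gapdh-ps15 had 0 or 1 counts in each library. The labels' treatment text also lists an siRNA against Gapdh, assigned to none of the 6 samples. Its part in these values was not tested.

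**Figure D4:**
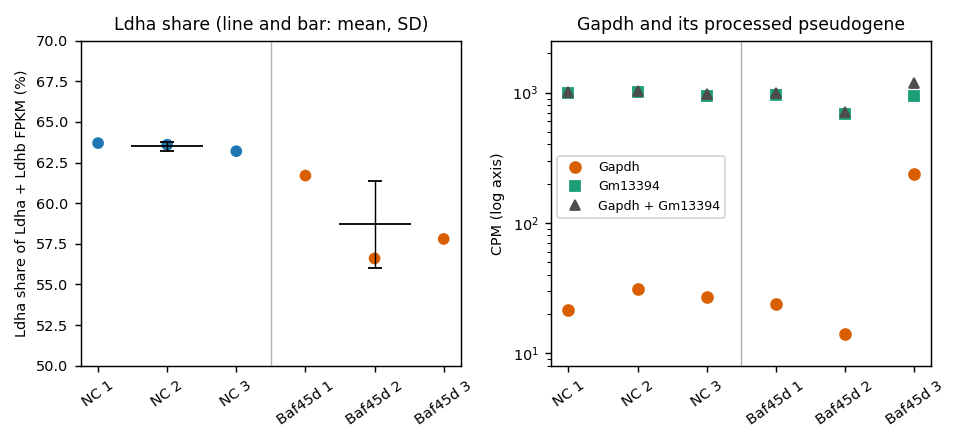
Left, Ldha as a percentage of the summed Ldha and Ldhb FPKM in each library, with group mean and SD (n = 3; the axis starts at 50%). Right, CPM (log axis) of Gapdh, of its processed pseudogene Gm13394 and of their sum; Gapdh is at 14.02 to 31.17 CPM in 5 libraries and 236.2 CPM in Baf45d replicate 3, while Gm13394 is between 690.5 and 1003 CPM.

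The lactate dehydrogenase subunits had fold changes of opposite sign. Ldha, the subunit that prevails in muscle and in glycolytic cells, had 702.5, 706.6 and 624.6 CPM in NC libraries, against 724.8, 619.2 and 481.0 CPM in Baf45d libraries. Ldhb, the subunit that prevails in heart, had 190.1, 191.7 and 172.2 CPM against 213.3, 225.6 and 166.3 CPM. In addition 17 genes, mostly processed pseudogenes, share sequence with Ldha and held 6.95% of their joint count with it. Neither subunit passed the test (log2 fold changes of -0.16 ± 0.13 and 0.13 ± 0.11, SE).

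As a share of their summed FPKM, which cancels depth and scaling, Ldha made up 63.7%, 63.6% and 63.2% in NC libraries, against 61.7%, 56.6% and 57.8% in Baf45d libraries. All 3 Baf45d libraries lay below all 3 NC libraries, replicate 1 by the least. The means were 63.5% ± 0.236 and 58.7% ± 2.68 (SD, n = 3 each), a difference of -4.8 percentage points. By an exact permutation test (two-sided) p was 0.1, which 3 libraries a group cannot go below, and 0.9 after Benjamini-Hochberg adjustment over the 9 isozyme families compared in this way. In the other 8 families the groups overlapped. Hk2 made up 68.1% ± 4.05 of the hexokinase FPKM in NC libraries, against 66.0% ± 6.29 in the Baf45d libraries, and Slc2a3 43.3% ± 0.936 and 41.3% ± 4.19 of that of the glucose transporters.

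Lactate leaves the cell through monocarboxylate transporters. Slc16a3 (MCT4, chr11:120948480-120960868), the exporter of glycolytic cells, had 222.2, 210.9 and 203.1 CPM in NC libraries, against 219.7, 140.0 and 140.4 CPM in Baf45d libraries. Replicates 2 and 3 lay far below every NC library, while replicate 1 was close to the highest of them. Its log2 fold change was -0.35 ± 0.16 (SE, unadjusted p = 0.0587 and adjusted p = 0.996, edgeR), the second smallest p among the members. Slc16a1 (MCT1) showed another order, 44.73, 47.88 and 62.51 CPM against 41.87, 37.66 and 59.77 CPM, with both libraries numbered 3 the highest. The authors' deposited table gave Slc16a3 a p of 0.0255 and an adjusted p of 1. There 2 members had an unadjusted p under 0.05, Slc16a3 and Ndrg1, beside 394 of 27064 genes with a p-value. These p-values come from the same counts, and the submitters' notes name DESeq2, which was also run above. They are therefore not separate support.

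Pyruvate dehydrogenase kinases hold pyruvate back from the citric acid cycle. Pdk1, a HIF target, stood at 143.8, 138.7 and 149.1 CPM in NC libraries, against 153.0, 127.0 and 101.2 CPM in Baf45d libraries. Pdk3 stood at 45.13 ± 2.07 and 47.06 ± 4.25 CPM. The groups overlapped for both.

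Hif1a was among the steadier members, at 156.4, 167.9 and 166.9 CPM in NC libraries, against 158.2, 177.4 and 174.5 CPM in Baf45d libraries. Its log2 fold change was 0.05 ± 0.08 (SE), and the Baf45d libraries that were low for most members were not low for Hif1a. HIF activity is set mainly by the stability of the protein, which RNA does not show. Of the prolyl hydroxylases, Egln1 (PHD2), the main oxygen sensor, had 188.1, 178.5 and 185.0 CPM in NC libraries, against 183.2, 160.7 and 153.7 CPM in Baf45d libraries. Egln3 (PHD3), itself a HIF target, stood at 26.92 ± 3.39 and 23.21 ± 5.21 CPM. Both were lowest in Baf45d replicates 2 and 3.

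Among the 7 other hypoxia response genes, 6 had a negative log2 fold change and none passed the test. Ndrg1 (chr15:66929318-66969640), a stress-responsive gene induced by hypoxia and by differentiation, had the smallest p of all members. Its CPM was 31.97, 29.38 and 28.88 in NC libraries, against 30.63, 19.07 and 16.71 in Baf45d libraries. Replicates 2 and 3 were below all NC libraries, for a log2 fold change of -0.44 ± 0.20 (SE, unadjusted p = 0.0505 and adjusted p = 0.996, edgeR). The authors' deposited table gave a p of 0.0226 and an adjusted p of 1. Ddit4 (REDD1), an inhibitor of mTORC1 signalling, had 286.6, 251.1 and 267.6 CPM against 292.2, 177.7 and 185.7 CPM, again highest in Baf45d replicate 1 and lowest in replicates 2 and 3.

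Bnip3 (chr7:138890836-138909519), a mitophagy receptor, was the 1 member of 34 whose groups did not overlap, a smaller share than the 4.3% of all genes with every Baf45d library lower. It had 103.4, 110.1 and 103.5 CPM in NC libraries, against 101.6, 101.6 and 69.89 CPM in Baf45d libraries. Replicates 1 and 2 lay just under the NC range and replicate 3 well under it. Its log2 fold change of -0.22 ± 0.13 (SE) had an adjusted p of 0.996 (edgeR), and its exact permutation p was 0.1. The fold change came to -0.06 (log2) when Baf45d replicate 3 was left out. Vegfa, the angiogenic growth factor, had 160.0, 160.4 and 163.7 CPM against 162.4, 152.3 and 118.5 CPM, again lowest in replicate 3. Adm, Ankrd37 and Car9 were at 0.56 to 5.71 CPM in every library, and their log2 fold changes of -0.60 ± 0.33, -0.22 ± 0.25 and 0.19 ± 0.38 (SE) did not pass the test. Car9, a carbonic anhydrase used as a marker of hypoxia, was represented by as few as 10 counts. Ankrd37 overlaps Ufsp2 (36.6 CPM) on the opposite strand.

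Other genes of these pathways were read from 6 lists of 106 genes, of which 97 were tested and none passed an adjusted p of 0.05. The lists for neighbouring pathways and for the regulators of HIF were centred near zero. The citric acid cycle had 8 of 16 negative (median -0.003), the pentose phosphate pathway 4 of 7 (median -0.007), pyruvate dehydrogenase and pyruvate entry 6 of 12 (median 0.003), and HIF pathway regulators 8 of 15 (median -0.006). The genes with the smallest p in each were Idh3b (log2 fold change -0.12) and Sdhd (-0.17), subunits of isocitrate and succinate dehydrogenase, Pgd (-0.09) and G6pdx (0.08), Mpc2 (-0.18), of the mitochondrial pyruvate carrier, and Dlat (-0.14), and Eloc (-0.14) and Arnt (-0.09), the partner subunit of HIF. The other glycolytic isozymes and PFKFB genes had 8 of 13 negative (median -0.06), led by Pgam2 at 5.14 ± 0.189 and 4.06 ± 0.748 CPM and Eno3 at 29.66 ± 0.514 and 26.6 ± 2.62 CPM.

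Of 34 tested genes in a list of other HIF targets, 27 were negative (median -0.07, beside 0.01 for all genes). At an unadjusted p under 0.05 there were 5, all lower, where 1.64% of all genes were. This list too was chosen with earlier results of these data known, so its shares are a description and not independent support. P4ha2, a collagen prolyl hydroxylase, had 44.17, 37.98 and 41.24 CPM in NC libraries, against 34.09, 31.48 and 33.26 CPM in Baf45d libraries. All Baf45d libraries, replicate 1 included, were below all NC libraries (unadjusted p = 0.00748, adjusted p = 0.996, edgeR). Pgm2, a phosphoglucomutase, stood at 83.98, 82.48 and 75.43 against 70.8, 73.59 and 61.51 CPM, also without overlap (unadjusted p = 0.0316, adjusted p = 0.996, edgeR). The remaining 3, named after their values were seen, were Plod1 and Lox, which modify collagen, and Fam162a. Mesenchyme and extracellular matrix markers lay in the same direction as these collagen-modifying genes. Of them 10 of 10 had a negative log2 fold change (median -0.29), and their summed level was 1816 to 2199 CPM in NC libraries, against 1712 to 1838 CPM in Baf45d libraries. Their part in the result was not tested.

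**Figure D5:**
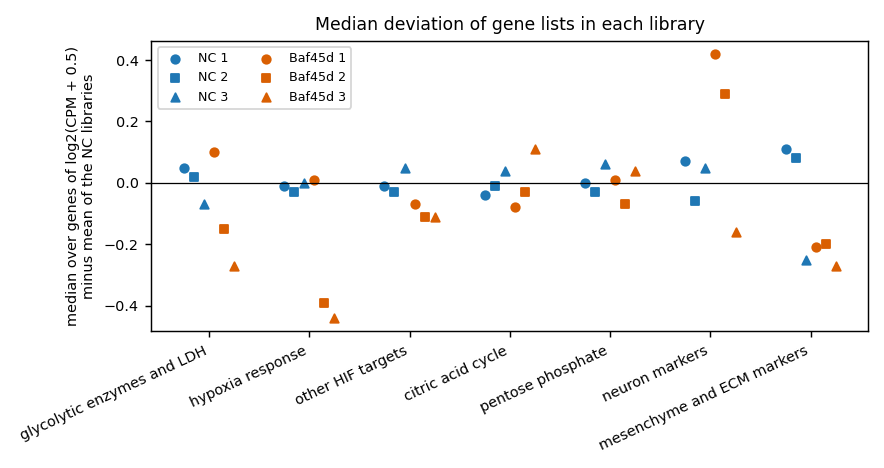
Median over genes of log2(CPM + 0.5) minus the mean of the NC libraries, for each library and list. The glycolytic enzymes and hypoxia response genes are at 0.10 and 0.01 in Baf45d replicate 1 and at -0.15 to -0.44 in replicates 2 and 3, whereas the citric acid cycle is at -0.08 to 0.11 in all libraries.

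Neuron markers also varied among the Baf45d libraries, in the same order as the medians of the members, with replicate 1 highest and replicate 3 lowest. For the neuron markers, 8 of 10 had a positive log2 fold change, and their median deviation from the NC mean was 0.42, 0.29 and -0.16 in Baf45d replicates 1, 2 and 3. Their summed level ran from 872.3 to 953.0 CPM in NC libraries and from 801.5 to 1242 CPM in Baf45d libraries. Replicate 2 was thus low for glycolytic enzymes (-0.15) and high for neuron markers, and replicate 3 low for both. Endothelium and blood markers summed to 37.12 to 43.87 CPM and 32.9 to 38.48 CPM, with Hba-a1, Hbb-bt and Ptprc at 0. The part of cell composition in the levels of the glycolysis and hypoxia response genes was not tested.

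The authors' deposited enrichment tables held few of these genes. Their KEGG term for glycolysis and gluconeogenesis held 1 gene, Pgm2, with a p of 0.718, and the term for HIF-1 signalling held Tek and Stat3, with a p of 0.629. The Reactome term for pyruvate metabolism in the authors' deposited table held Slc16a3 alone, with a p of 0.382. The Reactome term for the cellular response to hypoxia had a p of 0.00776 and an adjusted p of 0.137, from 5 genes of which none is a member described here.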

How the data were processed

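RNA of 6 samples (NC siRNA and Baf45d siRNA, 3 each) was measured by sequencing. The authors deposited 1 table holding each gene's raw count by library (per the file headers) and FPKM values made from the same counts. The authors' group columns are a signal (mean normalized counts), and the authors' log2 fold changes and p-values come with them. The submitters' processing notes name DESeq2 1.16.1 and the build mm9, yet 98.3% of 54409 matched identifiers had identical ends in GENCODE M21, so coordinates are GRCm38. The sources used here do not name the aligner, the read counter or its strand setting.

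Counts were fitted with edgeR 4.0.16 (R 4.3.3; filterByExpr, TMM, robust quasi-likelihood F test, group only, Benjamini-Hochberg over 16078 genes, threshold 0.05). CPM uses TMM-scaled totals. P-values set the group difference against the variation among these samples, which the labels do not say were separate cultures. On simulated counts the fit recovered 29 of 68 genes changed 1.5-fold, 49 of 65 changed 2-fold and 54 of 61 changed 3-fold, with 14 of 146 calls false. These counts were drawn independently for each library. A 1.5-fold change also exceeds that of most members, so recovery at their size was not tested. Same-numbered libraries deviated together (r = 0.274, 0.209 and 0.457 across genes, other pairs at most 0.154). The numbers were therefore taken as pairing in the block alternatives only, a choice made from these same counts and not from the labels. Alternatives changed scaling, filter, tool (DESeq2 1.42.0, limma 3.58.1), unit, pairing and libraries. Sequence sharing counted genes with at least 50 common 31-base words.

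Members and lists were chosen with earlier results of these data known. Every library's values are printed for the 3 members with the smallest p, the 3 with the highest FPKM, those without overlap or with 1 library more than 2-fold apart, and some others chosen after their values were seen. For each further list the 2 genes with the smallest p are named. The alternatives with copies counted together and for the Ldha share were chosen after seeing the data.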

Additional observations from a re-analysis of the deposited data

How the results depend on the processing

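No glycolysis or hypoxia response gene passed an adjusted p of 0.05 under any alternative run. Among all genes the number called was 0, and became 10 with no filter on low counts, 20 with both libraries numbered 3 left out, 1 with the replicate block, 1 with the replicate block and RLE scaling, 459 at an unadjusted p, and 0 to 44 with 1 replicate left out (44 without Baf45d replicate 3). The block changed no other call. The number of negative members ran from 23 to 28 and their median from -0.26 to -0.05 with 1 replicate left out. Among the 97 other pathway genes tested 5 were called at an unadjusted p, beside 2.85% of all genes. The median of the other HIF targets was -0.008 without both libraries numbered 3, and -0.113 to -0.04 with 1 replicate left out, and that of the other isozymes -0.106 to 0.061. With both libraries numbered 3 left out, signs turned for Pfkp (0.047), Aldoc (0.015), Gapdh (-0.471), Pkm (0.017) and Car9 (-0.023), and Gapdh counted with its copy gave -0.073. With 1 replicate left out, the ranges that crossed 0 were -0.155 to 0.048 for Hk1, -0.179 to 0.004 for Gpi1, -0.158 to 0.033 for Pfkm, -0.047 to 0.232 for the minor Aldoa entry, -0.328 to 0.148 for Aldoc, -0.489 to 2.292 for Gapdh, -0.01 to 0.179 for Eno1, -0.112 to 0.043 for Pkm, -0.378 to 0.005 for Slc16a1, -0.002 to 0.123 for Pdk3, -0.384 to 0.012 for Ankrd37 and -0.042 to 0.634 for Car9. Signs held but sizes ran from -0.749 to -0.274 for Ndrg1, -0.596 to -0.231 for Slc16a3, -0.312 to -0.126 for Pgk1, -0.299 to -0.022 for Tpi1, -0.301 to -0.013 for Ldha and -0.301 to -0.057 for Bnip3, each strongest without Baf45d replicate 1. For Bnip3, Baf45d replicates 1 and 2 both had 101.6 CPM, and its log2 fold change was -0.057 without replicate 3. The causes were not tested. The difference in the Ldha share stayed between -6.31 and -3.73 percentage points. Counts as low as 10 limit Car9 and 17 limit Adm.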
